A study of Mus musculus with 6 samples.

Results

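The enzymes that build fatty acids and join them into triacylglycerol, together with the factors and droplet proteins that govern the stored product, form a set of 36 genes that were chosen by name, with earlier results of these data known. These 36 genes were drawn from 29374 genes with any estimated read, and 35 of the 36 were abundant enough to test among 16656 genes. RNA was measured in 6 libraries of CD11b+Gr1+ splenocytes, the myeloid cells sorted from the spleens of tumor-bearing mice. All mice carried the Mll-AF9 knockin, which drives acute myeloid leukemia from a fused oncogene, and 3 libraries were Rpl22+/+ and 3 Rpl22-/-, both from lines on the C57BL/6 background. The Rpl22-/- allele is a germline deletion of a gene for a protein of the large ribosomal subunit, carried by all cells of the animal, and the labels give no age for the mice. Nothing in the labels ties each library to its own animal, and the study's description of these leukemias names a single mouse of each genotype. P-values therefore measure only the spread between these libraries, which may be technical, and a difference between the genotypes cannot be told apart from one between individual leukemias.

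Fatty acid synthesis begins in the cytosol, where citrate is cleaved to acetyl-CoA, carboxylated to malonyl-CoA and built into palmitate by fatty acid synthase. Desaturases and elongases then modify the chains in the endoplasmic reticulum, and acyltransferases place them stepwise on glycerol until the diacylglycerol acyltransferases complete triacylglycerol, which is stored in droplets and released again by lipases. Transcription of the early steps is controlled largely by SREBP-1, the product of Srebf1, and by the glucose-responsive factor ChREBP.

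Libraries of polyadenylated RNA held 35828500 to 102866127 estimated reads. Levels are given as CPM, estimated reads scaled to a common library total with a factor for composition, or, where genes are compared with each other, as TPM, which also divides by transcript length. A log2 fold change above 0 means more RNA in Rpl22-/- libraries. Rpl22 itself was at 148, 235 and 152 CPM in the Rpl22+/+ libraries and at 58.3, 89.9 and 73.5 CPM in the Rpl22-/- libraries (log2 fold change -1.27 ± 0.25 SE, adjusted p = 0.0106, edgeR quasi-likelihood test with Benjamini-Hochberg adjustment), and reads from exons outside the deleted part were not separated from the rest. Rpl22+/+ replicate 2 stood apart from its group, with a correlation of log2 CPM of 0.926 and 0.934 to the other two against 0.992 between them, and its level of Ptprc, the common leukocyte antigen, was 155 CPM against 1128 and 1054 CPM. Its level of Itgam (CD11b) was not lower, at 2085 against 1838 and 1861 CPM. Of the proliferation markers, Mki67 was at 17.3 against 818 and 669 CPM and Pcna at 284 against 210 and 219 CPM. Calls of the 35 genes that change without this library are given with both values, and those of other pathway genes as counts. Markers of maturation moved with genotype: 6 of 6 primary granule genes were higher and 8 of 8 secondary and tertiary granule genes lower in Rpl22-/- libraries, with summed levels of 2908 to 3795 against 26989 to 32209 TPM and of 54643 to 57485 against 16361 to 23332 TPM. Itgam, which encodes CD11b, was read in every library at 815 CPM or more but was lower in Rpl22-/- cells (log2 fold change -1.02 ± 0.16 SE, adjusted p = 0.00482), and Ly6g, which encodes an antigen of the Gr1 gate, fell from 159 ± 16.2 to 14.2 ± 2.64 CPM (SD, n = 3), with a log2 fold change of -3.49. The other 3 genes of the gate list, Ptprc, Ly6c1 and Ly6c2, did not pass (log2 fold changes -0.94, 0.40 and 0.51), and the summed level of all 5 was 2872 to 3021 against 3179.8 to 3726 TPM. Of 5 erythroid markers 4 were higher, with a summed level of 147 to 172 against 914 to 1678 TPM, and 3 of 3 T cell markers were lower, at 20.6 to 25.9 against 6.35 to 7.90 TPM. Of 5 B cell markers Pax5 was lower and none higher, with a summed level of 395 to 502 against 284 to 388 TPM. Of 7 tested monocyte and macrophage markers 4 were lower and 3 higher (339 to 420.3 against 153 to 205 TPM in sum), and both NK cell markers were higher (0.768 to 1.24 against 2.77 to 4.27 TPM). The part of these cell populations in the results below was not tested, and in such bulk samples fewer cells of a type and less RNA per cell cannot be told apart.

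Of the 35 tested genes, 6 were higher and 6 were lower in Rpl22-/- libraries at an adjusted p under 0.05, which is 17.1% in each direction. Over all genes tested the shares were 13.7% higher and 13.8% lower (27.6% in either direction), close to the shares of the set. The count lower was 10 without Rpl22+/+ replicate 2, 2 without Rpl22+/+ replicate 3 or Rpl22-/- replicate 1, 3 without Rpl22-/- replicate 3 and 10 with the replicate block plus GC correction. The count higher was 10 in that last fit, without composition factors and on log2 TPM. The median log2 fold change of the set was -0.07, beside 0.07 over all genes. The genes that changed lay at different steps: Mlxipl, Acacb, Scd2, Elovl5, Abhd5 and Plin3 rose, and Fads2, Gpat3, Agpat4, Lpin2, Dgat1 and Dgat2 fell. Without overlap between the genotypes were 8 genes with higher and 9 with lower CPM, against 23.9% and 22.2% of all genes (46.1% together). A change over 1 on the log2 scale with a pass was seen upward in 4 genes (Mlxipl, Scd2, Elovl5 and Plin3) and downward in 3 (Fads2, Gpat3 and Agpat4), beside 8.93% and 8.54% of all genes. Of the 12 genes that passed, Mlxipl, Scd2, Elovl5, Gpat3 and Plin3 did so in all 18 alternative analyses, and the other 7 lost their call in at least 2 of them.

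**Figure D1:**
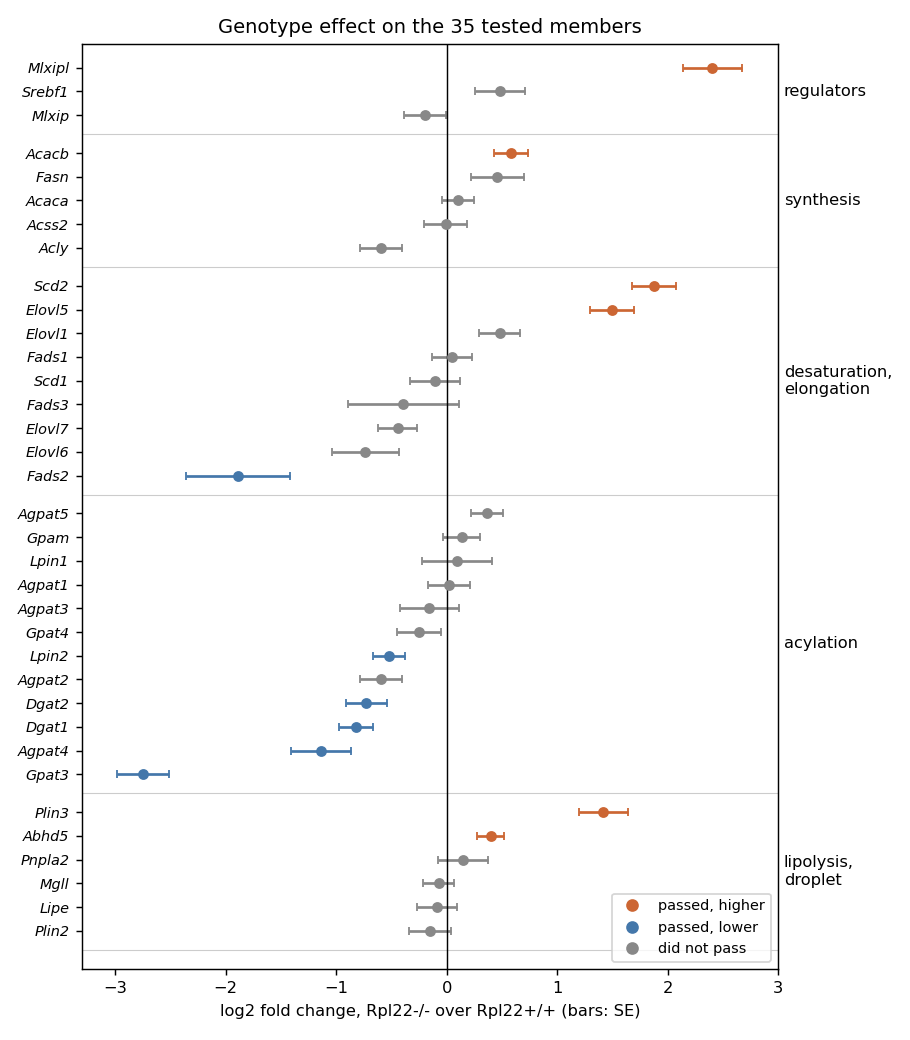
Log2 fold change (Rpl22-/- over Rpl22+/+, horizontal axis, bars are SE) of the 35 tested genes, sorted within 5 role groups, with orange for genes that passed higher, blue for genes that passed lower and grey for genes that did not pass. The 5 acylation genes that passed all lie left of 0, and Gpat3 is the farthest left of all genes shown, at -2.75.

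Among the 3 regulators, Mlxipl rose from a very low level and Srebf1 and Mlxip did not pass the test. Mlxipl (ChREBP, ENSMUSG00000005373, chromosome 5, 135118744 to 135167236, GRCm39) switches on lipogenic genes in response to glucose metabolites. Mlxipl was at 0.441, 0.419 and 0.494 CPM in Rpl22+/+ replicates 1 to 3 and 2.94, 2.14 and 2.13 CPM in Rpl22-/- replicates 1 to 3, which are 31, 31, 37, 110, 214 and 226 estimated reads. All 3 Rpl22-/- libraries lay above the Rpl22+/+ libraries (log2 fold change 2.40 ± 0.27 SE, adjusted p = 0.00120). The reads were split among coding and nonsense-mediated decay transcripts, and none of those tested passed on its own (adjusted p from 0.105 to 0.625).

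Srebf1 (ENSMUSG00000020538, chromosome 11, 60089915 to 60113407, GRCm39) encodes SREBP-1, the main activator of fatty acid synthesis genes. Srebf1 was at 63.0, 107 and 66.1 CPM in Rpl22+/+ replicates 1 to 3 and 106, 120 and 102 CPM in Rpl22-/- replicates 1 to 3. Rpl22+/+ replicate 2 reached the Rpl22-/- range while the other Rpl22+/+ libraries lay well below it, and the difference did not pass (log2 fold change 0.48 ± 0.23 SE, adjusted p = 0.170). Without Rpl22+/+ replicate 2 it did (log2 fold change 0.72, adjusted p = 0.00551), and per length the genotypes did not overlap, at 30.9 to 37.7 against 48.0 to 55.6 TPM. Srebf1 passed in 6 of 18 alternatives. Mlxip, which encodes the glucose sensor MondoA, had a log2 fold change of -0.20 and passed in none.

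Promoter sequence (the 250 bases before the annotated start, RefSeq, GRCm38.p6) was in the reference table for 29 of the 36 genes, all but Scd1, Scd2, Fads1, Gpat4, Agpat5, Dgat1 and Dgat2. It is shown for 1 gene each of the regulators, the elongases and the acylation enzymes that passed in all 18 alternatives, because the motifs of the regulators above can be read in it directly. The sterol regulatory element core TCACNCCAC was searched on both strands and was found in 1 of the 29, Mlxipl, and in 1.22% of all genes with promoter sequence. A gene was counted once if any of its listed starts held a match. The E-box CACGTG, a palindrome, was in 5 of 29 (Elovl5, Lipe, Lpin2, Mgll and Mlxipl) and in 6.86% of all, and the CCAAT box in 16 of 29 and 37.49%. These are matches of letters, not measured binding. Motifs are in capitals in the sequence of the first listed Mlxipl start, which holds the sterol element core. The E-box and CCAAT box counted for Mlxipl lie before its other listed start, which is not shown.
Mlxipl, chr5:135106641-135106890, plus strand: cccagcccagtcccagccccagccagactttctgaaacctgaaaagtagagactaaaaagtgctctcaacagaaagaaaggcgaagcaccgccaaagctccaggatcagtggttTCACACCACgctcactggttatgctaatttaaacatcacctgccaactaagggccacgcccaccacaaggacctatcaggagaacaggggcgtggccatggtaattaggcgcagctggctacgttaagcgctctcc

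Of the 5 tested genes that supply and build the fatty acid chain, Acacb rose and the other 4 did not pass. Acacb (ENSMUSG00000042010, chromosome 5, 114284596 to 114388822, GRCm39) encodes the acetyl-CoA carboxylase of the mitochondrial surface, whose malonyl-CoA restrains fatty acid oxidation. Acacb was at 15.1, 17.3 and 12.5 CPM in Rpl22+/+ replicates 1 to 3 and 22.1, 22.7 and 22.5 CPM in Rpl22-/- replicates 1 to 3, without overlap (log2 fold change 0.58 ± 0.16 SE, adjusted p = 0.0342). The call was lost when any library other than Rpl22+/+ replicate 2 was left out (adjusted p 0.0567 to 0.135). Of the 64 tested transcripts that held at least 10% of the reads of their gene, 3 passed higher and 3 lower, beside 6.94% of all 57835 transcripts in either direction. In Acacb between 79.2% and 89.8% of its reads were assigned to the retained-intron transcript Acacb-204 (log2 fold change 0.62 ± 0.21 SE, adjusted p = 0.150), and the full-length coding transcript Acacb-201 had a log2 fold change of 0.03 (adjusted p = 0.977).

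Fasn (ENSMUSG00000025153, chromosome 11, 120696672 to 120715373, GRCm39) encodes fatty acid synthase, which makes palmitate. Fasn was at 103, 183 and 109 CPM in Rpl22+/+ replicates 1 to 3 and 172, 184 and 187 CPM in Rpl22-/- replicates 1 to 3. As with Srebf1, Rpl22+/+ replicate 2 lay with the Rpl22-/- libraries, and the difference did not pass (log2 fold change 0.46 ± 0.24 SE, adjusted p = 0.209). It passed without that library (log2 fold change 0.73, adjusted p = 0.00317) and in 7 of 18 alternatives in all, and on the TPM scale the genotypes were at 17.4 to 26.0 and 36.2 to 42.8 without overlap. Acly, the ATP-citrate lyase that makes cytosolic acetyl-CoA, was lower in every Rpl22-/- library, from 356 ± 78.8 to 236 ± 22.3 CPM as mean ± SD of 3 libraries, and missed the threshold (log2 fold change -0.59 ± 0.19 SE, adjusted p = 0.0602), but passed with the replicate number as a block (adjusted p = 0.0252) and without Rpl22+/+ replicate 2 (log2 fold change -0.44, adjusted p = 0.0397). Acaca, the main cytosolic carboxylase, and Acss2, which activates acetate, had log2 fold changes of 0.10 and -0.01. Me1, the malic enzyme that yields NADPH, was too sparse to test, with 17, 16 and 5 estimated reads against 2, 2 and 5. Per unit of depth that is a ratio of 4.29, Rpl22+/+ over Rpl22-/-, with an exact 95% interval of 2.04 to 10.1 for counting error only.

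Among the 9 genes of desaturation and elongation, Scd2 and Elovl5 rose, Fads2 fell and 6 did not pass, with a median log2 fold change of -0.11. Scd2 (ENSMUSG00000025203, chromosome 19, 44282113 to 44295303, GRCm39) and Scd1 (ENSMUSG00000037071, chromosome 19, 44382894 to 44396318) are neighbouring stearoyl-CoA desaturases that make monounsaturated fatty acids. Scd2 was at 69.1, 103 and 66.8 CPM in Rpl22+/+ replicates 1 to 3 and 294, 306 and 276 CPM in Rpl22-/- replicates 1 to 3. All Rpl22-/- libraries lay far above all Rpl22+/+ libraries (log2 fold change 1.88 ± 0.20 SE, adjusted p = 0.00111). Scd1 was at 44.8, 51.5 and 35.7 CPM in Rpl22+/+ and 30.2, 47.7 and 44.8 CPM in Rpl22-/- libraries, with overlapping groups (log2 fold change -0.11 ± 0.22 SE, adjusted p = 0.777). Reads that matched both genes were divided between them by the authors' quantification. Scd2 made up a larger share of the pair in Rpl22-/- libraries, at 87.5%, 80.7% and 81.5% of their summed TPM against 49.2%, 58.8% and 55.2%.

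Lin28b, a protein that the study examined, is known to block the maturation of let-7 microRNAs, so the letters pairing with the let-7 seed are shown for this pair of paralogs. MicroRNAs were not measured in these libraries. The let-7a-5p sequence (RefSeq) has its seed, bases 2 to 8, in capitals, and each site is a window of the 3′UTR of the most-read coding transcript (GRCm38) with the 7 matching bases in capitals.
let-7a-5p: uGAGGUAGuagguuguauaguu
Scd2, chr19:44306477-44306506, plus strand: atattcctgacCTACCTCcacgggtaggtg
Scd1, chr19:44396344-44396373, minus strand: ccagatcctccCTACCTCcaactcatgtgc

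Both desaturase transcripts held 1 match. In all, 5 of the 36 genes held a match (Mlxip, Scd1, Scd2, Gpat4 and Mgll), against 9.19% of 13149 tested genes with an annotated 3′UTR, and of these 5 Scd2 passed the test. Over all genes the median log2 fold change was -0.059 with a match and 0.045 without.

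Elovl5 (ENSMUSG00000032349, chromosome 9, 77824646 to 77891801, GRCm39) elongates polyunsaturated chains. Elovl5 was at 55.6, 80.6 and 55.8 CPM in Rpl22+/+ replicates 1 to 3 and 190.3, 194 and 157 CPM in Rpl22-/- replicates 1 to 3, and all Rpl22-/- libraries were above all Rpl22+/+ libraries (log2 fold change 1.495 ± 0.20 SE, adjusted p = 0.00233). The coding transcript, Elovl5-201, held at least 99.8% of its reads and rose likewise (log2 fold change 1.44 ± 0.23 SE, adjusted p = 0.0185). The gene lies on chromosome 9, whose 757 tested genes had a median change of 0.34 (log2), and chromosome 4, which holds Elovl1 and Plin2, had a median of 0.44 over 832 genes, whereas the other autosomes and X lay between -0.08 and 0.12. The part of the chromosome in the rise of Elovl5 was not tested. Its promoter, with the E-box and 2 reverse CCAAT boxes in capitals, reads as follows (RefSeq, GRCm38.p6).
Elovl5, chr9:77917115-77917364, plus strand: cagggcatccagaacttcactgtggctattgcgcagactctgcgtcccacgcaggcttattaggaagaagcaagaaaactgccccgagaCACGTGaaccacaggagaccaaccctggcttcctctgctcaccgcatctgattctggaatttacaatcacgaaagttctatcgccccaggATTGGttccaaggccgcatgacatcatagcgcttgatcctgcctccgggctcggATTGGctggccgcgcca

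Fads2 (ENSMUSG00000024665, chromosome 19, 10040129 to 10079110, GRCm39), the delta-6 desaturase that starts polyunsaturated fatty acid synthesis, was low in all libraries. Fads2 was at 2.16, 4.44 and 2.50 CPM in Rpl22+/+ replicates 1 to 3 and 0.428, 0.729 and 1.26 CPM in Rpl22-/- replicates 1 to 3, without overlap (log2 fold change -1.89 ± 0.47 SE, adjusted p = 0.0258). Its call was lost without Rpl22+/+ replicate 3 (adjusted p = 0.0583), Rpl22-/- replicate 1 (0.0668) or Rpl22-/- replicate 2 (0.0870). The neighbouring Fads1 and Fads3 on chromosome 19 had log2 fold changes of 0.05 and -0.40. Elovl1, which elongates saturated chains, missed the threshold (log2 fold change 0.48 ± 0.19 SE, adjusted p = 0.106) and passed with the replicate block (adjusted p = 0.0465). Elovl1 lies on chromosome 4, whose median was 0.44 as given above, and the part of the chromosome in its value was not tested. Elovl6, the elongase of palmitate, and Elovl7 had log2 fold changes of -0.74 (adjusted p = 0.118) and -0.45 (adjusted p = 0.115). Without Rpl22+/+ replicate 2 all 3 of these elongases passed, Elovl1 with log2 fold change 0.64, adjusted p = 0.00670, Elovl6 with log2 fold change -1.05, adjusted p = 0.00340 and Elovl7 with log2 fold change -0.62, adjusted p = 0.0135.

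**Figure D2:**
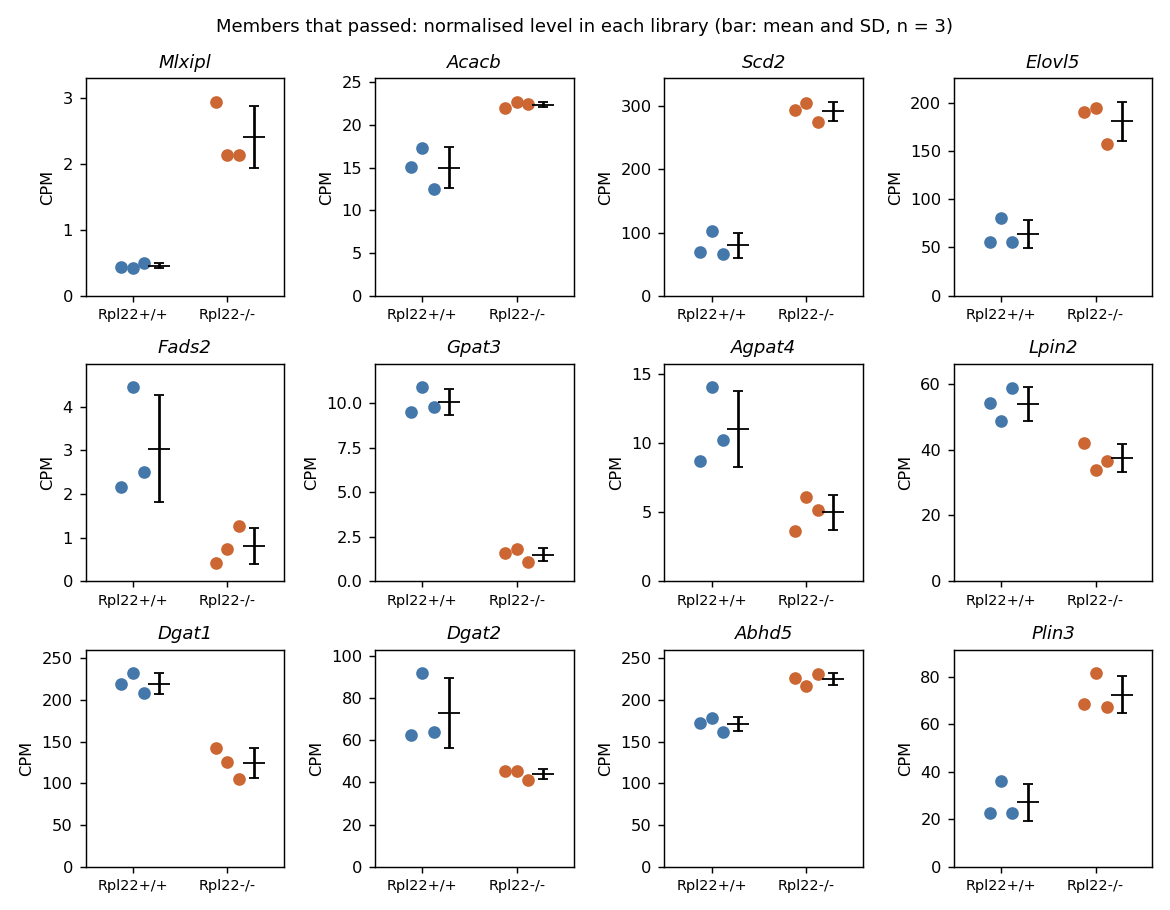
Normalised level (CPM, vertical axes from 0) of the 12 genes that passed, in each of the 3 Rpl22+/+ (blue) and 3 Rpl22-/- (orange) libraries, with the mean and SD beside the points. The points of the genotypes do not overlap in any panel, and Scd2 lies at 66.8 to 103 against 276 to 306 CPM.

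Of the 12 acylation genes, Gpat3, Agpat4, Lpin2, Dgat1 and Dgat2 fell in Rpl22-/- libraries and none rose, which is 41.7% lower beside 13.8% of all genes. The count of 5 became 2 without Rpl22+/+ replicate 3, Rpl22-/- replicate 1 or Rpl22-/- replicate 3. Their group had a median log2 fold change of -0.39, against 0.07 over all genes. The first step, the addition of an acyl chain to glycerol-3-phosphate, is shared by Gpam, Gpat3 and Gpat4. Gpat3 (ENSMUSG00000029314, chromosome 5, 100993579 to 101046968, GRCm39) serves triacylglycerol synthesis in the endoplasmic reticulum. Gpat3 was at 9.51, 10.9 and 9.78 CPM in Rpl22+/+ replicates 1 to 3 and 1.58, 1.81 and 1.10 CPM in Rpl22-/- replicates 1 to 3. The Rpl22-/- libraries were all far below the Rpl22+/+ libraries (log2 fold change -2.75 ± 0.24 SE, adjusted p = 4.62e-04). Both of its coding transcripts had lower estimates, Gpat3-202 with a pass (log2 fold change -3.50 ± 0.49 SE, adjusted p = 0.0126) and Gpat3-201 without (log2 fold change -1.99 ± 0.63 SE, adjusted p = 0.135).

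Gpam, the mitochondrial enzyme, was at 8.54, 11.2 and 8.84 CPM in Rpl22+/+ and 10.5, 11.2 and 9.70 CPM in Rpl22-/- libraries, which overlap (log2 fold change 0.14 ± 0.17 SE, adjusted p = 0.612), and Gpat4 had a log2 fold change of -0.25. Gpat3 held 16.0%, 12.1% and 16.5% of the summed TPM of the 3 enzymes in Rpl22+/+ and 2.80%, 3.09% and 2.12% in Rpl22-/- libraries, and Gpat4 was the most abundant of them per length in every library. In the 250 bases before the start of Gpat3 none of the 3 motifs above was found, and no capitals are used.
Gpat3, chr5:100845979-100846228, plus strand: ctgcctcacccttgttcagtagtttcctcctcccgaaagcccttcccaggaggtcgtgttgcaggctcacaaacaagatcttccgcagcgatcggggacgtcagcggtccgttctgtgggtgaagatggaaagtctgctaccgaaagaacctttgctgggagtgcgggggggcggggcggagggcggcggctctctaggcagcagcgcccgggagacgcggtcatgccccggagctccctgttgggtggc

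The second acylation, by the AGPAT enzymes, and the phosphatase step that follows held 1 call each. Agpat4 (ENSMUSG00000023827, chromosome 17, 12337591 to 12438532, GRCm39) acylates lysophosphatidic acid. Agpat4 was at 8.70, 14.1 and 10.3 CPM in Rpl22+/+ replicates 1 to 3 and 3.66, 6.13 and 5.18 CPM in Rpl22-/- replicates 1 to 3, without overlap (log2 fold change -1.14 ± 0.27 SE, adjusted p = 0.0212). The call was lost without Rpl22+/+ replicate 3, Rpl22-/- replicate 1 or Rpl22-/- replicate 3 (adjusted p 0.0593, 0.0633 and 0.0728). Agpat2, the most abundant AGPAT per length, was likewise lower in every Rpl22-/- library, from 122 ± 27.0 to 81.0 ± 7.90 CPM as mean ± SD of 3 libraries, but missed the threshold (log2 fold change -0.59 ± 0.19 SE, adjusted p = 0.0560), and passed with the replicate block (adjusted p = 0.0222) and without Rpl22+/+ replicate 2 (0.0346). It made up 59.4%, 57.8% and 57.3% of AGPAT TPM in Rpl22+/+ and 49.8%, 48.3% and 46.7% in Rpl22-/- libraries. Agpat1, Agpat3 and Agpat5 had log2 fold changes of 0.02, -0.16 and 0.36, and Agpat5 passed as higher in 4 of 18 alternatives, among them the fit without composition factors (log2 fold change 0.50, adjusted p = 0.0118).

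Lpin2 (ENSMUSG00000024052, chromosome 17, 71489555 to 71556812, GRCm39) encodes a lipin, the phosphatase that makes diacylglycerol. Lpin2 was at 54.1, 48.8 and 58.9 CPM in Rpl22+/+ replicates 1 to 3 and 42.2, 33.7 and 36.7 CPM in Rpl22-/- replicates 1 to 3 (log2 fold change -0.52 ± 0.14 SE, adjusted p = 0.0364). The CPM groups did not overlap, but per length they did, at 11.6 to 25.5 against 13.0 to 21.4 TPM, and Lpin2 passed in 8 of 18 alternatives. Without any library other than Rpl22+/+ replicate 2 the call was lost (adjusted p 0.0543 to 0.141). Lpin1 had a log2 fold change of 0.09. The reads matched to Lpin1 made up 0.537 of the authors' base mean, so the value of that gene is incomplete.

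The last step is shared by Dgat1 and Dgat2, unrelated enzymes that complete triacylglycerol, and both fell. Dgat1 (ENSMUSG00000022555, chromosome 15, 76386215 to 76396153, GRCm39) is the one whose inhibition the study tested, in cultured explants of such leukemias. There the study reported more lipid in Rpl22-/- cells and a stronger effect of the inhibitor on their survival. Neither triacylglycerol nor its synthesis was measured in the libraries used here. Dgat1 was at 218, 232 and 208 CPM in Rpl22+/+ replicates 1 to 3 and 142, 125 and 106 CPM in Rpl22-/- replicates 1 to 3. All Rpl22-/- libraries were below all Rpl22+/+ libraries (log2 fold change -0.82 ± 0.15 SE, adjusted p = 0.00875). The coding transcript Dgat1-201 fell (log2 fold change -1.14 ± 0.17 SE, adjusted p = 0.0171), from 152 to 79.1 RPM (reads scaled by library total only) on average, whereas the shorter retained-intron transcript Dgat1-205 did not pass (log2 fold change -0.06 ± 0.24 SE, adjusted p = 0.937). On the TPM scale, where short transcripts weigh more, the groups overlapped at 185 to 248 against 129 to 193, and the fall did not pass (log2 fold change -0.53, adjusted p = 0.0777, limma on log2(TPM + 1)). That scale understates fold changes of low genes, but Dgat1 was at 129 TPM or more. On log2(TPM + 0.1) limma gave nearly the same values (log2 fold change -0.53, adjusted p = 0.0775).

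Dgat2 (ENSMUSG00000030747, chromosome 7, 98802865 to 98831926, GRCm39) was the less abundant of the pair per length. Dgat2 was at 62.3, 91.8 and 64.0 CPM in Rpl22+/+ replicates 1 to 3 and 45.3, 45.4 and 41.0 CPM in Rpl22-/- replicates 1 to 3, without overlap (log2 fold change -0.73 ± 0.18 SE, adjusted p = 0.0264). Its call was lost without Rpl22+/+ replicate 3, Rpl22-/- replicate 1 or Rpl22-/- replicate 3 (adjusted p 0.0546, 0.0820 and 0.107). The share of Dgat1 in the pair was 86.2%, 80.6% and 85.4% in Rpl22+/+ and 86.5%, 84.3% and 83.2% in Rpl22-/- libraries (exact permutation p = 0.8, two-sided).

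**Figure D3:**
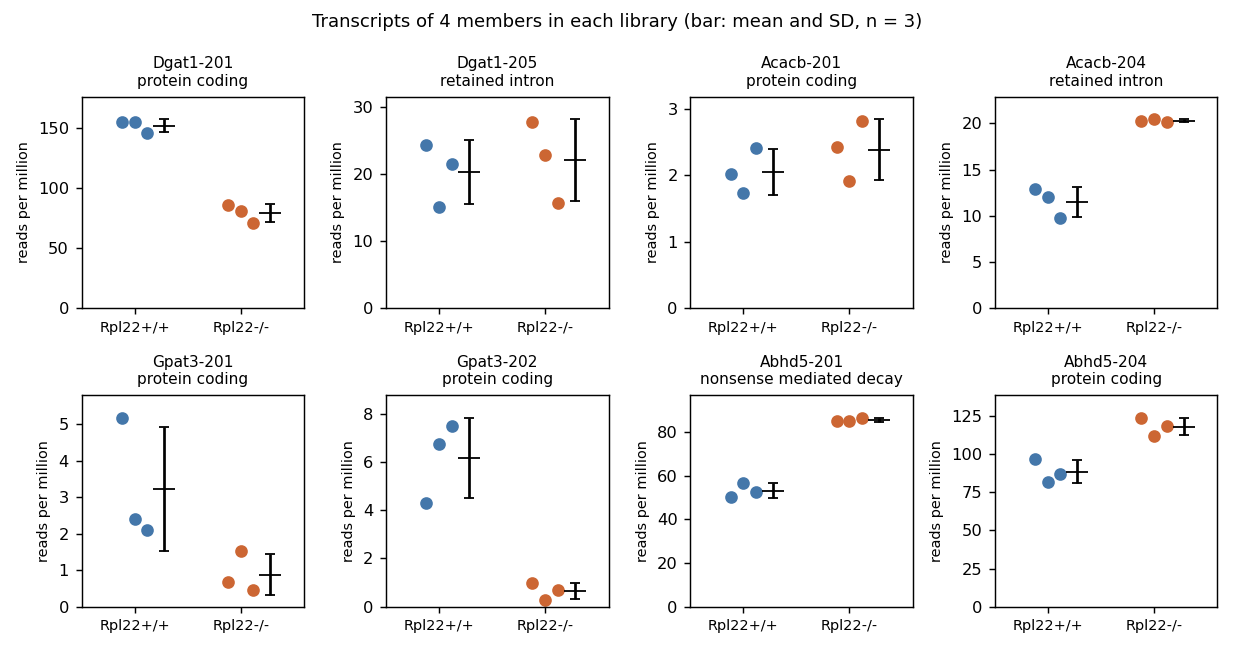
Estimated reads scaled by library total only (RPM, vertical axes from 0) of 2 transcripts each of Dgat1, Acacb, Gpat3 and Abhd5 in the 3 Rpl22+/+ (blue) and 3 Rpl22-/- (orange) libraries, with the mean and SD. Coding Dgat1-201 separates the genotypes, while retained-intron Dgat1-205 and coding Acacb-201 overlap.

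Of the 6 droplet and lipase genes, Plin3 and Abhd5 rose and the lipases themselves did not pass. Plin3 (ENSMUSG00000024197, chromosome 17, 56584476 to 56599873, GRCm39) coats newly forming lipid droplets. Plin3 was at 22.8, 36.2 and 22.7 CPM in Rpl22+/+ replicates 1 to 3 and 68.5, 81.8 and 67.6 CPM in Rpl22-/- replicates 1 to 3, and every Rpl22-/- library was above every Rpl22+/+ library (log2 fold change 1.42 ± 0.22 SE, adjusted p = 0.00461). Abhd5 (ENSMUSG00000032540, chromosome 9, 122180673 to 122210589, GRCm39) encodes CGI-58, the co-activator of adipose triglyceride lipase. Abhd5 was at 172, 179 and 162 CPM in Rpl22+/+ replicates 1 to 3 and 227, 217 and 232 CPM in Rpl22-/- replicates 1 to 3, without overlap (log2 fold change 0.40 ± 0.12 SE, adjusted p = 0.04998). That call sat at the threshold, was lost with the replicate block (adjusted p = 0.0617) and held in 11 of 18 alternatives. It was also lost without any library other than Rpl22+/+ replicate 2 (adjusted p 0.0669 to 0.208), and the gene lies on chromosome 9, whose median is given above. Its coding transcript Abhd5-204 and its nonsense-mediated decay transcript Abhd5-201 had log2 fold changes of 0.23 and 0.49, neither with a pass.

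Plin2, the main droplet coat outside fat tissue, was at 181 to 211 TPM in Rpl22+/+ and 189.5 to 202 TPM in Rpl22-/- libraries, with a log2 fold change of -0.15. It remained the more abundant coat, but its share of Plin2 and Plin3 TPM was 93.4%, 93.0% and 94.2% in Rpl22+/+ and 84.2%, 83.9% and 85.6% in Rpl22-/- libraries. In CPM, which does not divide by length, the difference was -16.0 percentage points against -8.97 in TPM. Pnpla2 (adipose triglyceride lipase), Lipe (hormone-sensitive lipase) and Mgll (monoacylglycerol lipase), which release the chains in turn, had log2 fold changes of 0.15, -0.09 and -0.07. The fat cell markers Adipoq and Lep had under 3 reads in all libraries together, and Adrb3 was at 0.0283 CPM or less.

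Summed over each role group, the level per length was higher for desaturation and elongation and lower for acylation in all Rpl22-/- libraries. Desaturation and elongation went from 188 ± 7.49 to 356 ± 29.5 TPM (SD, n = 3), although the median gene of that group had a log2 fold change of -0.11, and acylation from 517 ± 24.9 to 403 ± 49.9 TPM (SD, n = 3). The regulators went from 57.8 ± 3.55 to 76.7 ± 10.97 TPM (SD, n = 3), and the lipase and droplet genes from 447 ± 14.2 to 533 ± 29.5 TPM (SD, n = 3), without overlap either. In CPM the sums of both of these overlapped, at 171 to 204 against 192 to 224 CPM for the regulators and 544 to 749 against 672 to 718 CPM for the lipase and droplet genes (exact permutation p = 0.3 and 0.4, two-sided), whereas those of desaturation and elongation and of acylation did not. Synthesis genes were at 152 ± 8.41 and 145 ± 7.39 TPM (SD, n = 3) and overlapped. Abundant genes weigh most in these sums. Elovl1, which did not pass, went from 114 to 174 TPM on average, Elovl5 from 28.9 to 88.5 and Scd2 from 19.1 to 71.2. Of the acylation genes, Dgat1, whose TPM overlapped, went from 222 to 154 and Agpat2, which did not pass, from 118 to 85.7. The means of Agpat1, Agpat5, Gpam and Lpin1 went the other way. An exact permutation test of 3 against 3 libraries cannot go below p = 0.1, two-sided, which the 4 groups other than synthesis reached (0.125 adjusted over the 5), and synthesis had p = 0.4. Of 9 shares within gene families, 6 reached that smallest p (0.15 adjusted over the 9), namely those of Scd2, Gpat3, Agpat2, Elovl5, Fads2 and Plin2.

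Elovl5 held 19.5% ± 0.691 of the TPM of the 4 elongases in Rpl22+/+ and 33.2% ± 0.915 in Rpl22-/- libraries (SD, n = 3). Fads2 held 21.9% ± 4.69 and 7.17% ± 3.33 of the FADS family. The shares of Acaca, Lpin1 and Dgat1 overlapped between the genotypes.

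**Figure D4:**
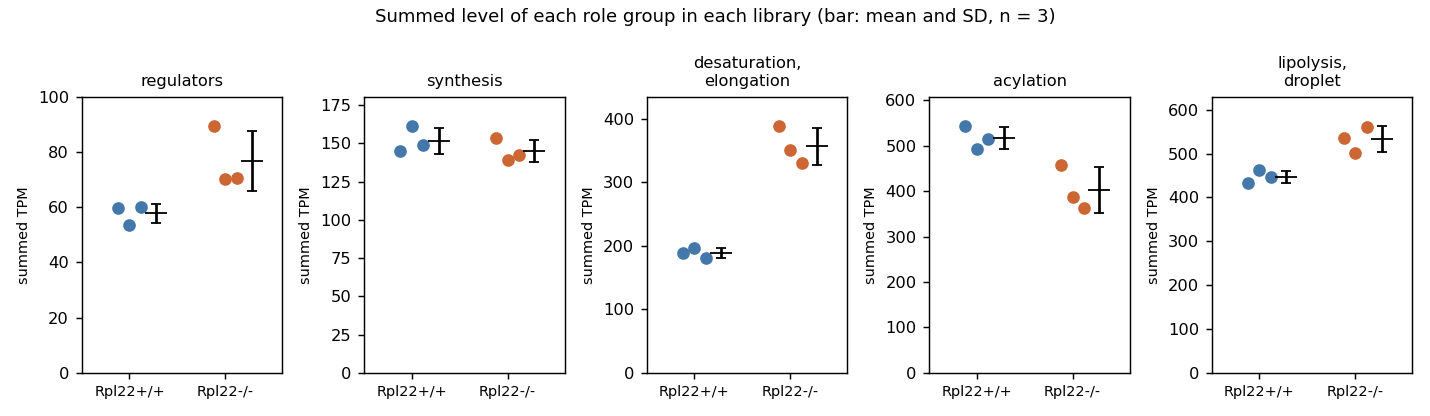
Summed TPM (vertical axes from 0) of the genes of each role group in the 3 Rpl22+/+ (blue) and 3 Rpl22-/- (orange) libraries, with the mean and SD. Desaturation and elongation lies at 181 to 196 TPM in Rpl22+/+ and at 329.7 TPM or more in Rpl22-/- libraries, and synthesis overlaps.

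**Figure D5:**
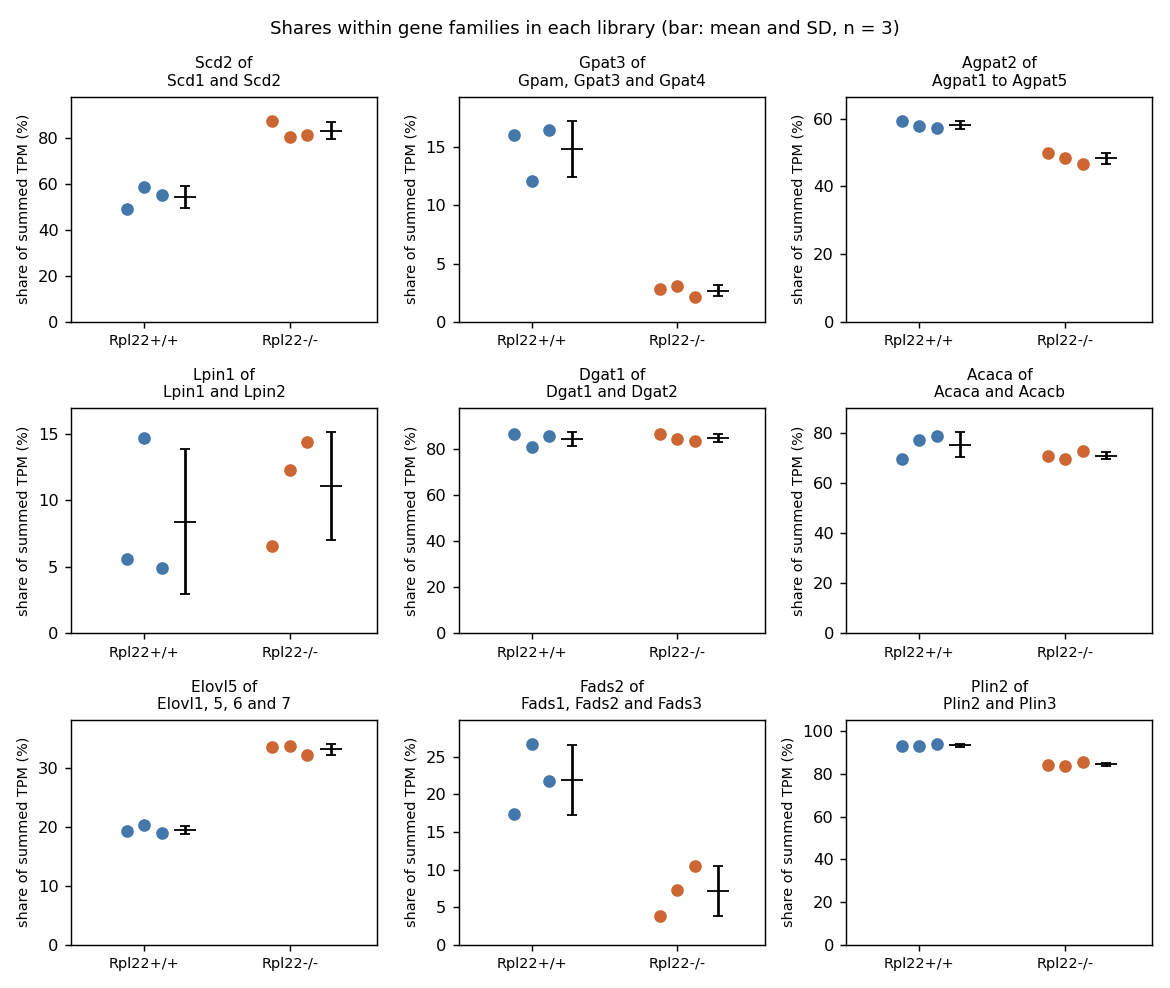
Share of 1 gene in the summed TPM of its family (percent, vertical axes from 0) in the 3 Rpl22+/+ (blue) and 3 Rpl22-/- (orange) libraries, with the mean and SD. The genotypes separate in the panels of Scd2, Gpat3, Agpat2, Elovl5, Fads2 and Plin2 and overlap in those of Lpin1, Dgat1 and Acaca.

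Around these enzymes, 84 further genes of the pathway were followed in 7 lists, of which 73 were tested, 8 passed higher and 13 passed lower. Those are 10.96% and 17.8%, near the 13.7% and 13.8% of all genes. Leaving out 1 library gave 4 to 14 higher and 8 to 17 lower, with 14 higher without Rpl22+/+ replicate 2, 4 higher without Rpl22+/+ replicate 1 or 3 or Rpl22-/- replicate 1 or 3, and 8 lower without Rpl22+/+ replicate 3 or Rpl22-/- replicate 3. Among 12 tested SREBP and LXR control genes, 2 rose and 1 fell, the latter being 2 without Rpl22+/+ replicate 2 and 0 without Rpl22-/- replicate 1. Scap, which carries SREBP from the endoplasmic reticulum to its activating proteases, rose from 58.7 ± 16.4 to 139 ± 5.29 CPM (SD, n = 3) (log2 fold change 1.24 ± 0.21 SE, adjusted p = 0.00608). Nr1h3, the lipid-sensing receptor LXR alpha that induces Srebf1, rose from a low level (log2 fold change 1.35 ± 0.25 SE, adjusted p = 0.00853). Srebf2, which favours sterol genes, fell (log2 fold change -0.86 ± 0.20 SE, adjusted p = 0.0209), and Insig1, which retains Scap when sterols are ample, did not pass (log2 fold change -0.40 ± 0.43 SE, adjusted p = 0.554).

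Of 6 AMPK subunits, the kinase that inactivates acetyl-CoA carboxylase, 1 was higher and 1 lower. Both counts were 0 without Rpl22+/+ replicate 3 or Rpl22-/- replicate 3, the count higher was 0 without replicate 1 of either genotype, and the count lower was 2 without Rpl22+/+ replicate 2. The count lower was also 2 with the replicate block, GC correction, the DESeq2 test or the length offset, and 4 with the block plus GC correction. Of 10 genes of citrate and NADPH supply none was higher and 2 were lower, among them the mitochondrial acetyl-CoA synthetase Acss1 (log2 fold change -1.25 ± 0.17 SE, adjusted p = 0.00286). In that list 2 were higher without Rpl22+/+ replicate 2, on log2 TPM and with the replicate block plus GC correction, and 1 was lower without Rpl22+/+ replicate 3, Rpl22-/- replicate 1 or Rpl22-/- replicate 3. The count lower was 5 with the block plus GC correction and 3 with the DESeq2 test, with GC correction alone and on log2 TPM. The elongation cycle had 1 of 10 higher and 1 lower, the dehydratase Hacd4 (log2 fold change -1.20 ± 0.16 SE, adjusted p = 0.00256), with 2 higher without Rpl22+/+ replicate 2 and 0 higher without any of the other 5 libraries. In that list 3 were higher without composition factors, on log2 TPM and with the replicate block plus GC correction, and 2 were lower with GC correction, alone or with the block. Fatty acid uptake and activation split, with 2 of 8 higher and 1 lower. The count higher was 1 without replicate 1 or 3 of either genotype, and the count lower was 2 without Rpl22+/+ replicate 2 or with the replicate block plus GC correction. Its transporter Slc27a4 fell from 164 ± 35.9 to 30.2 ± 2.94 CPM (SD, n = 3) (adjusted p = 3.72e-04) and Slc27a1 rose from 12.7 ± 1.20 to 29.6 ± 4.40 CPM (SD, n = 3) (adjusted p = 0.00248).

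Other acyltransferases and phosphatases had 1 of 15 higher, Mboat2, and 5 lower, which is 33.3% lower beside 13.8% of all genes. The count higher was 2 without Rpl22+/+ replicate 2 and 0 without any of the other 5 libraries. The count lower was 4 without Rpl22+/+ replicate 3, Rpl22-/- replicate 1 or Rpl22-/- replicate 3. With GC correction 0 were higher and 8 lower. The 5 that passed as lower included the lysophosphatidylcholine acyltransferases Lpcat2 (log2 fold change -2.41 ± 0.19 SE, adjusted p = 3.29e-04) and Lpcat1 (log2 fold change -1.64 ± 0.21 SE, adjusted p = 0.00206), and Soat1, which esterifies cholesterol (log2 fold change -1.06 ± 0.13 SE, adjusted p = 0.00157). Among 12 further droplet and lipase genes 1 was higher, the droplet-inducing Fitm1 (log2 fold change 2.51 ± 0.33 SE, adjusted p = 0.00222), and 2 were lower, among them the coat gene Plin5 (log2 fold change -1.27 ± 0.30 SE, adjusted p = 0.0207). Both were below 3 CPM in every library. In that list 3 were higher and 3 lower without Rpl22+/+ replicate 2, 0 lower without Rpl22+/+ replicate 3 or Rpl22-/- replicate 3 and 1 lower without Rpl22-/- replicate 1, and 3 were higher without composition factors and on log2(TPM + 1). The other genes of these lists that passed, named here after their values were seen, were Prkag2, Hacd1, Dbi and Mboat2, which were higher, and Prkaa1, G6pdx, Mboat1, Mboat7 and Lipa, which were lower. Of all 21 that passed, 11 did so in every one of the 18 alternatives, and the others in 16 (Srebf2 and Plin5), 15 (G6pdx), 14 (Prkag2 and Dbi), 13 (Prkaa1 and Hacd1), 12 (Lipa), 10 (Mboat1) and 8 (Mboat2). With the replicate block 4 more passed as lower, Lpcat3, Mbtps2, G0s2 and Prkab2 (also named after their values were seen, adjusted p 0.0188, 0.0222, 0.0416 and 0.0469), and none was lost.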

How the data were processed

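Polyadenylated RNA of sorted leukemic splenocytes was sequenced from a stranded kit in 6 libraries, 3 per genotype. Per the submitters' processing notes the reads were trimmed with Trimmomatic and quantified with Salmon on GRCm39, and versions and the transcript set were not given in the sources used here. Each deposited library file holds the estimated count and TPM of every transcript, and for the whole series the authors deposited a table of genes with base mean (a normalised signal averaged over all libraries), log2 fold change and p-value columns. The authors' own comparison columns were not used. Gene positions were taken from that table.

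Transcripts were joined to genes by GENCODE vM21, which matched 136036 of 276623 listed transcripts carrying 98.0% to 98.1% of reads, and summed, and estimated counts were rounded to whole numbers. Genes were filtered with filterByExpr, scaled by TMM and tested with the quasi-likelihood test of edgeR 4.0.16 (R 4.3.3) on genotype, with Benjamini-Hochberg adjustment over all 16656 genes, and passed at an adjusted p under 0.05. Transcripts were tested likewise. The 18 alternatives per gene covered size factors, filters, DESeq2 1.42.0, limma 3.58.1 with voom or on log2 TPM, transcript length, GC content, a replicate block and 6 fits with 1 library left out. Sums and shares were compared by exact permutation with scipy 1.17.1. The code was tested on simulated data. Depth limits low genes, and the interval given covers counting error only.

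Same-numbered libraries of the genotypes deviated together from their group means (r = 0.570, 0.715 and 0.129 over genes averaging 50 or more counts, 0.479, 0.634 and 0.0974 over all tested genes), so the replicate number was taken to pair them, from the data and not from a statement in the labels. Rpl22+/+ replicate 3 correlated more with Rpl22-/- replicate 1, at 0.43, than with the library of its own number. Calls made with the replicate block rest on this pairing, which was inferred from the same libraries. No libraries agreed within sampling noise. All 36 genes are accounted for. Values in every library are given for those that passed and for Srebf1, Fasn, Scd1, Scd2, Gpam, Dgat1 and Dgat2. Other pathway genes are named where they passed with an absolute log2 fold change over 1, up to 3 per list, with Scap, Insig1 and Srebf2. The remaining ones that passed, and 4 that passed with the replicate block, are also named, chosen after their values were seen. Members and lists were chosen with earlier results of these data known.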

Additional observations from a re-analysis of the deposited data

How the results depend on the processing

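Of 630 single-gene values under alternatives, 507 kept direction and call, 33 lost a call, 54 gained one and 36 changed sign, none of the last past the threshold or over 0.138 in size. The cause was not tested. The genes counted as higher went from 6 to 10 without composition factors, on log2(TPM + 1), on log2(TPM + 0.1) and with the replicate block plus GC correction, and those lower from 6 to 10 in that last fit. Without composition factors the median change over all genes (log2) moved from 0.07 to 0.19, 61.5% instead of 49.8% of calls were higher and 3543 genes were higher. On log2(TPM + 1) and log2(TPM + 0.1) 60.1% and 60.4% of calls were higher. The block plus GC correction gave 3710 higher and 3744 lower over all genes. With the replicate block alone the counts were 6 and 8 (2943 and 2688 over all genes, 3 and 2 of the transcripts), and beyond Acly, Elovl1, Agpat2 and Abhd5 it changed no call of the 35 genes. The other 73 pathway genes tested went from 8 higher and 13 lower to 14 and 15 without composition factors and on log2(TPM + 1), 7 and 21 with GC correction and 13 and 27 with that and the block. Leaving out 1 library gave 4 to 9 higher and 2 to 10 lower, 1175 to 3540 and 1392 to 3311 over all genes, and 0 to 3 and 0 to 4 transcripts against 3 and 3. In CPM in place of TPM, the change in share (percentage points) was 23.6 for Scd2, -9.75 for Gpat3, 19.1 for Elovl5 and -16.0 for Plin2, against 28.9, -12.2, 13.7 and -8.97. The log2 ratio of the sums was 0.15 for regulators, -0.16 for synthesis, 1.09 for desaturation and elongation and 0.18 for lipase and droplet genes, against 0.41, -0.07, 0.92 and 0.25. Signs changed, always near 0, for Acss2 (0.138, 0.02, 0.003, 0.081, 0.09, 0.01, 0.009, 0.008), Scd1 (0.029), Agpat1 (-0.003, -0.008, -0.003, -0.057, -0.056), Lipe (0.061, 0.079, 0.081), Mgll (0.066, 0.055, 0.057) over the other fits, and with 1 library left out for Acss2 (-0.144 to 0.137), Scd1 (-0.241 to 0.075), Fads1 (-0.053 to 0.161), Agpat1 (-0.104 to 0.204), Agpat3 (-0.351 to 0.048), Lpin1 (-0.116 to 0.407), Pnpla2 (-0.006 to 0.377), Lipe (-0.189 to 0.075), Plin2 (-0.28 to 0.003). Low levels limit Mlxipl, Fads2 and Fads3 to few reads.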
